A study of Mus musculus with 15 samples.

Results

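The Id and E protein genes make up a small family of helix-loop-helix regulators that was read here across 6 groups of sorted bone marrow progenitors. They were chosen by name, as the rows Id1, Id2, Id3, Tcf3, Tcf4 and Tcf12 of the processed table. All 6 were present among its 12798 genes, and 4 of them, Id2, Tcf3, Tcf4 and Tcf12, passed the filter on low values, which asks for 2 or more libraries at a log2 value of 0 or above and left 12572 genes for testing. Id1 and Id3 did not pass it and were not tested.

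The study measured bulk RNA from 15 libraries of C57BL/6 mouse bone marrow, sorted along the route from lymphoid progenitors to innate lymphoid cell (ILC) precursors. ALP_WT (n = 3) held all-lymphoid progenitors from Tcf7EGFP/+ mice, gated as 2B4+ Kit+ cells without lineage markers, negative for a4b7, Flt3high and IL-7Ra+. EILP_WT (n = 3) held early innate lymphoid progenitors from Tcf7EGFPnull/+ mice, gated within the same Kit+ 2B4+ fraction as a4b7+, Tcf7+ and Thy1-, and so carried 1 null Tcf7 allele. EILP_KO (n = 2) was the matching population from Tcf7EGFPnull/- mice. sEILP_WT (n = 2) and cEILP_WT (n = 3) came from mice with the Tcf7GFP and Zbtb16GFP alleles and split EILP into a Zbtb16low Flt3high and a Zbtb16high Flt3low fraction. ILCP_WT (n = 2) held the ILC precursor from Tcf7EGFP/+ mice, gated as Thy1+ and IL-7Ra+ beside Tcf7. Strain and stage cannot be told apart where sEILP_WT or cEILP_WT is set against ALP_WT, EILP_WT or ILCP_WT. The same holds for EILP_WT, with its null allele, against ALP_WT or ILCP_WT. Genotype and stage likewise cannot be told apart where EILP_KO is set against any group but EILP_WT. Whether replicates came from separate animals is not given in the sources used here, and p-values measure only the spread between libraries, which may be technical.

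E proteins are basic helix-loop-helix transcription factors. Tcf3 encodes E2A, with its splice forms E12 and E47, Tcf12 encodes HEB, and Tcf4 encodes E2-2; they pair with each other or with tissue-specific partners and bind the E-box motif in DNA. Id proteins have the helix-loop-helix but lack the basic region that touches DNA, so an E protein paired with an Id protein cannot bind. E proteins are known for driving B and T lymphoid programmes, E2-2 for the plasmacytoid dendritic cell programme, and Id2 is known as a factor that innate lymphoid cells need.

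All values are on the log2 scale of the deposited table, whose linear values sum to between 998697 and 999292 in each library. Whether they were also divided by transcript length is not given in the sources used here, so levels were compared between groups for 1 gene at a time and not between genes. Each library has a lowest value of its own, from -4.83 to -4.41, which 747 to 2575 genes share. Genes at that value are described as at the lowest value, with no fold where a whole group lies there. EILP_WT replicate 3 had the most such genes. The targeted gene, Tcf7, was 9.89 to 11.14 in EILP_WT, 6.97 and 7.65 in EILP_KO and 1.91 to 2.64 in ALP_WT. It was 9.98 and 10.23 in the sEILP_WT libraries, 11.06 to 11.34 in those of cEILP_WT, and 9.89 and 10.17 in ILCP_WT. It fell by 3.34 in EILP_KO (SE 0.32, limma adjusted p = 0.00151), so the knockout libraries followed their labels, while their Tcf7 values stayed above ALP_WT. Some gate genes also followed the sort: Itgb7 and Itga4, the chains of a4b7, rose by 3.09 and 2.05 from ALP_WT to EILP_WT, and Thy1 rose in ILCP_WT against cEILP_WT (9.18, SE 1.83, limma adjusted p = 0.0107). Il7r, whose product is in the ILCP gate, did not pass in that last comparison (3.40, SE 2.44, limma adjusted p = 0.455). Zbtb16 and Flt3, which split EILP, differed in the direction of the sort in cEILP_WT against sEILP_WT, but neither passed. Zbtb16 was 2.25 higher (SE 0.58, limma adjusted p = 0.663) and Flt3 1.33 lower (SE 0.72). In bulk RNA, fewer cells with a transcript and less of it per cell cannot be told apart. Where groups are said not to overlap, this describes 2 or 3 libraries per group. The share of all genes without overlap was not counted, so it adds no support to a difference that was not called.

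Id2, the member with the largest differences between groups, lies on chromosome 12 at 25093799 to 25097140, minus strand, in mm10 (GENCODE M21). Tcf3 lies on chromosome 10 at 80409514 to 80433647 and Tcf12 on chromosome 9 at 71842688 to 72111871, both minus strand. Id1 lies on chromosome 2 at 152736251 to 152737410 and Id3 on chromosome 4 at 136143497 to 136145755, both plus strand. Of the 6 members, 4 had a promoter entry in RefSeq (GRCm38.p6). The sequences upstream of Id2 and of Tcf3 are shown because they are the start regions of the member that differed most between groups and of an E protein gene that differed little, and because the E-box is the motif the family binds. They run 5′ to 3′ on the gene's strand and stop before the first base that GENCODE M21 places in an exon. E-box matches (CANNTG, which reads the same on both strands) are in capitals. The first is chr12:25096254-25096342, 89 bases that end 162 bases before the RefSeq start, in an intron of a longer annotated Id2 transcript, and the second chr10:80433648-80433885, 238 bases that end 13 bases before it.
Id2: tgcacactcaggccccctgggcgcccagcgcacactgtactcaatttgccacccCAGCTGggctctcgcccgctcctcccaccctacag
Tcf3: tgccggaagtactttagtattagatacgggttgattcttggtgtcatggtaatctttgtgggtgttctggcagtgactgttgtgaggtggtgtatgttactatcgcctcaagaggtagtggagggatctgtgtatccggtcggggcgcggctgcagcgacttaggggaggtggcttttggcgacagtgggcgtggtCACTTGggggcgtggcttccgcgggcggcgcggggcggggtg
The 250 bases before each RefSeq start held 1 E-box in both genes, CAGCTG starting 196 bases before the start of Id2 and CACTTG starting 54 bases before that of Tcf3. Of 32851 promoters of the same length, 66.22% held at least 1 CANNTG and 13% held CAGCTG. The core of the motif that TCF-1 binds, CTTTGA or CTTTGT on either strand, had 0 matches before Id2 and 1 before Tcf3, and 27.62% of those promoters held one. These are letters in the reference and no measure of binding.

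Id2 was low in ALP_WT and high in every later group. In ALP_WT the 3 libraries held 3.76, 5.16 and 4.11. The sEILP_WT libraries held 8.37 and 8.24, the cEILP_WT libraries 9.41, 9.10 and 8.33, and the EILP_WT libraries 9.35, 9.64 and 10.08. The highest ALP_WT library thus lay more than 3 log2 units below the lowest library of any other group. In EILP_KO Id2 was 9.64 and 9.30, within the span of EILP_WT and its neighbours. The ILCP_WT libraries, at 10.84 and 11.23, were the highest of all 15, and overlapped with no other group.

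From ALP_WT to EILP_WT, 2 of the 4 tested members passed, Id2 upward and Tcf4 downward, where 3.21% of all tested genes passed (1.71% higher and 1.5% lower). Id2 rose by 5.39 on the log2 scale (SE 0.36, 95% interval 4.60 to 6.18, limma adjusted p = 9.57e-06), which is 41.9-fold. Into the earlier fraction, sEILP_WT against ALP_WT, it rose by 4.04 (SE 0.43, interval 3.11 to 4.98, limma adjusted p = 0.00144), or 16.5-fold. There again Id2 and Tcf4 were the 2 members that passed, against 0.803% of all genes (0.493% higher, 0.31% lower). Both comparisons use the same ALP_WT libraries, as do those of cEILP_WT, EILP_KO and ILCP_WT with ALP_WT, where Id2 rose by 4.64, 5.15 and 6.71 (limma adjusted p = 4.40e-05, 5.33e-05 and 1.19e-06). The shares of all genes that passed in those 3 comparisons were 4% (1.97% higher, 2.03% lower), 1.33% (0.605% higher, 0.724% lower) and 13.4% (5.56% higher, 7.86% lower).

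Within the EILP stage Id2 differences were smaller than could be called. In cEILP_WT it was 0.60 above sEILP_WT (interval -0.28 to 1.48, limma adjusted p = 1.00), and the groups overlapped at 8.33. That comparison called 0 of all 12572 genes (0%) by limma, with 647 at an unadjusted p under 0.05, so a missed threshold does not show equal levels. EILP_WT lay 1.35 above sEILP_WT with no overlap between the libraries (interval 0.47 to 2.23, limma adjusted p = 0.869), in another comparison that called 0% of genes. It lay 0.74 above cEILP_WT, with overlap (interval -0.025 to 1.51, limma adjusted p = 0.632).

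From cEILP_WT to ILCP_WT, Id2 rose again, by 2.07 (SE 0.40, interval 1.2 to 2.93, limma adjusted p = 0.00894), or 4.19-fold. Tcf3 fell in the same comparison, so 2 of 4 members passed where 7.41% of all genes did (2.69% higher, 4.72% lower). The Id2 call was lost without ILCP_WT replicate 2 (1.91, limma adjusted p = 0.0556). Against sEILP_WT the ILCP_WT value was 2.67 higher (limma adjusted p = 0.00505, with 4.93% of all genes called and 1.86% higher). Against EILP_KO it was 1.56 higher (SE 0.43, limma adjusted p = 0.0454, with 8.57% of all genes called and 3.81% higher), a call lost when any of the 4 libraries of those groups was set aside (1.28 to 1.85, adjusted p = 0.0901 to 0.245). Against EILP_WT the difference was 1.32, with no overlap between the groups, and missed the threshold (SE 0.40, interval 0.46 to 2.19, limma adjusted p = 0.0679), where 6.95% of all genes passed (2.61% higher, 4.34% lower) and 0 of 4 members did. In order of mean, Id2 ran ILCP_WT, EILP_WT, EILP_KO, cEILP_WT, sEILP_WT and ALP_WT, and of the 5 neighbouring pairs in that order only sEILP_WT and ALP_WT differed at the threshold.

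Between EILP_KO and EILP_WT the Id2 difference was within the spread of the libraries. Id2 in EILP_KO was 0.24 below EILP_WT (SE 0.40, interval -1.11 to 0.62, limma adjusted p = 0.927). The interval covers falls of up to 1.11 log2 units and rises of up to 0.62. None of the 4 tested members passed in this comparison, in which 0.103% of all genes did (0.0477% higher and 0.0557% lower, 13 genes, with 1094 at an unadjusted p under 0.05). Against ALP_WT, the Id2 rise in EILP_KO was 35.5-fold. Without EILP_KO replicate 2 the difference from EILP_WT was 0.028, and in batch 1 alone it was 0.15, both of the opposite sign.

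**Figure D1:**
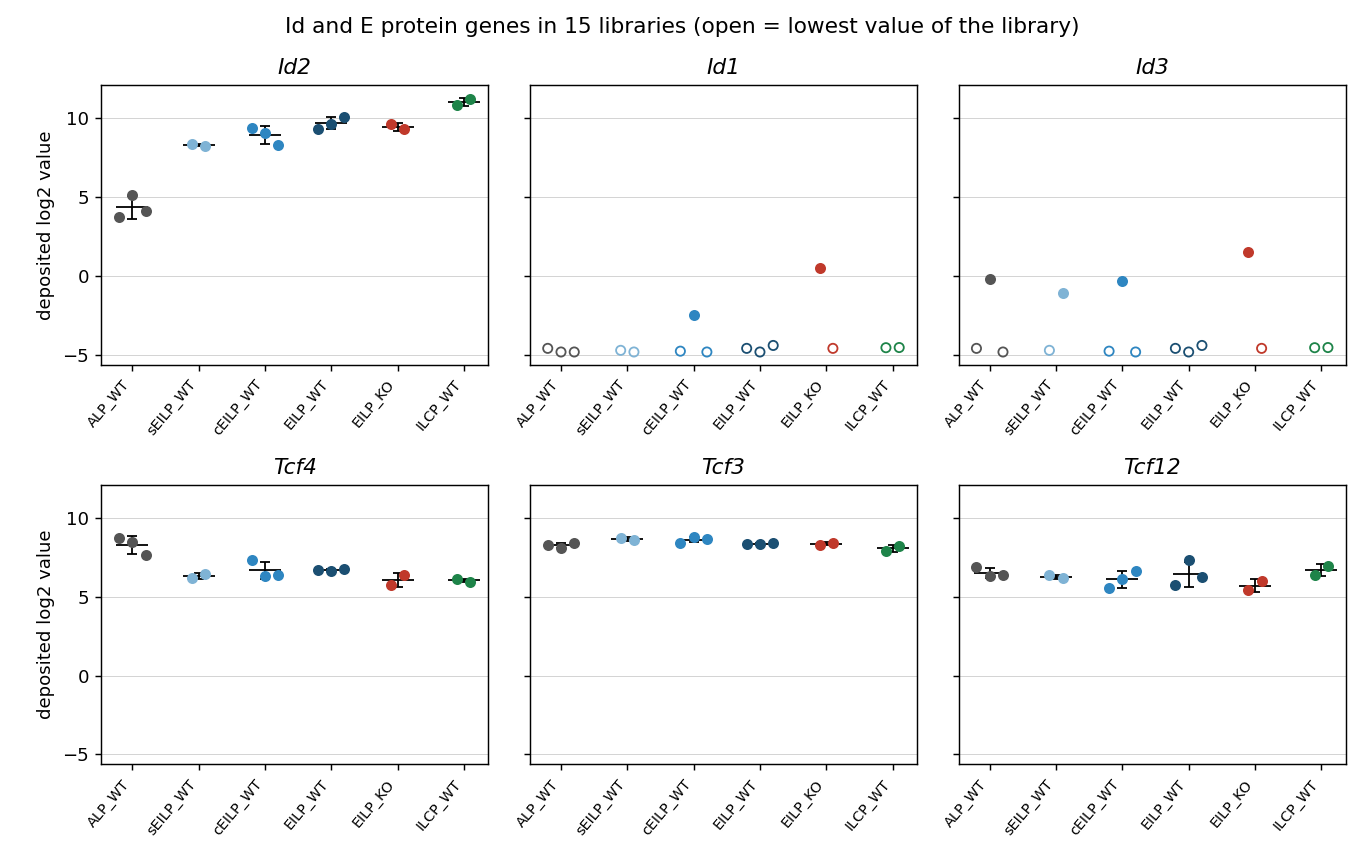
Deposited log2 values of the 6 Id and E protein genes (vertical axes) in the 15 libraries, by group along the horizontal axes; each point is a library and open points lie at that library's lowest value. Id2 sits at 3.76 to 5.16 in ALP_WT and at 8.24 or more in every other library, while Id1 and Id3 are at the lowest value in 13 and 11 libraries.

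Id1 and Id3, which encode the other Id proteins of the table, were at or near the bottom of the scale. Id1 was at the lowest value in 13 of 15 libraries, and stood above it in cEILP_WT replicate 2 (-2.48) and in EILP_KO replicate 1 (0.48). Id3 was at the lowest value in 11 libraries and was -0.18 in ALP_WT replicate 2, -1.11 in sEILP_WT replicate 2, -0.31 in cEILP_WT replicate 2 and 1.5 in EILP_KO replicate 1. For each gene the highest value was that of EILP_KO replicate 1, and the other EILP_KO library was at its lowest value for both. No group held either gene above the lowest value in all of its libraries. The depth of the libraries is unknown, so no limit of detection can be given for them.

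Tcf4, the gene of E2-2, was high in ALP_WT, where Id2 was low. Among sEILP_WT, cEILP_WT and EILP_WT the estimates of the 2 genes did not run opposite ways. From sEILP_WT to cEILP_WT they were 0.60 for Id2 and 0.39 for Tcf4, and to EILP_WT 1.35 and 0.41, with no call. EILP_KO estimates ran opposite ways against sEILP_WT (1.10 for Id2, -0.19 for Tcf4) and cEILP_WT (0.50 and -0.58). Against EILP_WT both were lower in EILP_KO (-0.24 and -0.60), again with no call. Tcf4 was 8.72, 8.49 and 7.67 in the ALP_WT libraries, the highest values of all 15. The sEILP_WT pair held 6.21 and 6.47, the cEILP_WT libraries 7.31, 6.33 and 6.41, and the EILP_WT libraries 6.71, 6.66 and 6.74. It was 5.78 and 6.38 in EILP_KO and 6.12 and 5.96 in ILCP_WT. The nearest approach to ALP_WT was cEILP_WT replicate 1, at 7.31 against 7.67 in the lowest ALP_WT library.

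Tcf4 fell by 1.64 from ALP_WT to EILP_WT (SE 0.32, interval -2.35 to -0.93, limma adjusted p = 0.0184), or 3.11-fold. It fell by 2.05 from ALP_WT to sEILP_WT (SE 0.38, interval -2.89 to -1.22, limma adjusted p = 0.0311), or 4.14-fold. Against the same ALP_WT libraries it fell by 1.66 in cEILP_WT, fell by 2.24 in EILP_KO and fell by 2.28 in ILCP_WT (limma adjusted p = 0.0139, 0.00837 and 0.00157). Among the other 5 groups no pair differed in Tcf4 at the threshold, including EILP_KO against sEILP_WT and cEILP_WT, where 0.0159% and 0.294% of all genes passed. ILCP_WT lay 0.61 below cEILP_WT (interval -1.39 to 0.16, limma adjusted p = 0.341) and 0.64 below EILP_WT (interval -1.41 to 0.14, limma adjusted p = 0.324), without overlap in either case. EILP_KO lay 0.60 below EILP_WT, also without overlap (interval -1.37 to 0.18, limma adjusted p = 0.657). With so few libraries, the lack of overlap in these pairs is a description and no support for a difference.

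The Tcf4 calls rest on few libraries, although their direction held in every one of the alternatives run for these 2 comparisons. The call in EILP_WT against ALP_WT was lost without ALP_WT replicate 1 (a difference of -1.38, limma adjusted p = 0.118) or replicate 2 (-1.52, adjusted p = 0.0700), and without EILP_WT replicate 2 (-1.60, adjusted p = 0.0543) or replicate 3 (-1.75, adjusted p = 0.0641). Within batches, as the labels give them, the difference was -2.04 in batch 1 (limma adjusted p = 0.0956) and -1.34 in batch 2 (adjusted p = 0.337). The call in sEILP_WT against ALP_WT was lost without ALP_WT replicate 1 (-1.74, adjusted p = 0.224), ALP_WT replicate 2 (-1.95, adjusted p = 0.0795), sEILP_WT replicate 1 (-1.92, adjusted p = 0.236) or sEILP_WT replicate 2 (-2.18, adjusted p = 0.153). The call in cEILP_WT was lost without ALP_WT replicates 1 or 2 or cEILP_WT replicate 3 (-1.40, -1.54 and -1.52, limma adjusted p = 0.0995, 0.0578 and 0.0833). The call in EILP_KO was lost without ALP_WT replicate 1 or EILP_KO replicate 1 (-2.00 and -1.81, limma adjusted p = 0.0524 and 0.0827), while that in ILCP_WT held with each single library left out. The Id2 rises into EILP_WT and sEILP_WT held with each single library left out.

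Tcf3, the gene of E2A, varied little. Its values were 8.29, 8.10 and 8.42 in ALP_WT, 8.76 and 8.59 in sEILP_WT, 8.34, 8.33 and 8.43 in EILP_WT, and 8.45, 8.81 and 8.66 in cEILP_WT. They were 8.32 and 8.45 in EILP_KO and 7.94 and 8.23 in ILCP_WT, so the whole range over 15 libraries was under 1 log2 unit. The 4 highest libraries were of the Zbtb16GFP strain, while its other library, cEILP_WT replicate 1, lay level with EILP_KO replicate 2, and the lowest was an ILCP_WT library. From cEILP_WT to ILCP_WT Tcf3 fell by 0.57 (SE 0.16, interval -0.91 to -0.23, limma adjusted p = 0.0474), or 1.49-fold. No subset of 4 of the 5 libraries kept that call (differences of -0.69 to -0.44, limma adjusted p = 0.0546 to 0.283). sEILP_WT was 0.47 above ALP_WT without overlap (limma adjusted p = 0.386) and EILP_KO differed from EILP_WT by 0.0027 (interval -0.34 to 0.34, limma adjusted p = 0.999).

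Tcf12, the gene of HEB, passed in none of the 15 pairs of groups. It was 6.87, 6.30 and 6.38 in ALP_WT, 6.36 and 6.17 in sEILP_WT, 5.77, 7.32 and 6.24 in EILP_WT and 5.58, 6.13 and 6.67 in cEILP_WT. In EILP_KO it was 5.41 and 6.02, and in ILCP_WT 6.41 and 6.97. Replicates spread as widely as groups, with an SD of 0.80 in EILP_WT, so its intervals are the widest of the 4. EILP_KO was 0.76 below EILP_WT (SE 0.45, interval -1.74 to 0.22, limma adjusted p = 0.653).

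**Figure D2:**
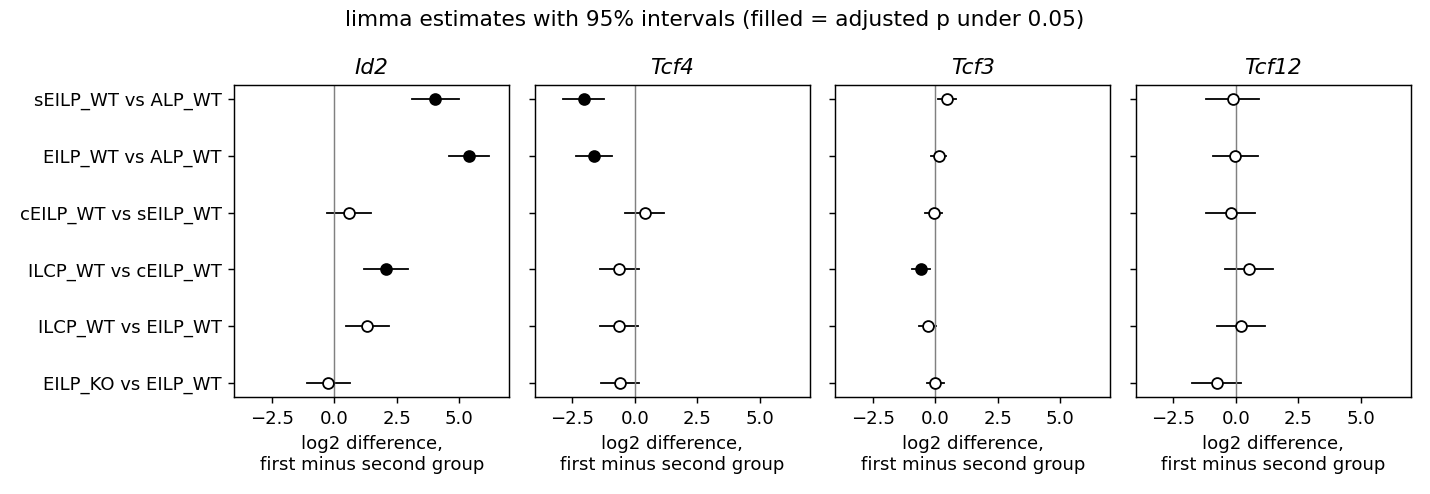
Log2 differences between groups (horizontal axes, first minus second group) for Id2, Tcf3, Tcf4 and Tcf12 in the named comparisons (vertical axis), as limma estimates with 95% intervals; filled points have an adjusted p under 0.05. Id2 stands at 5.39 and 4.04 in the comparisons of EILP_WT and sEILP_WT with ALP_WT, Tcf4 at -1.64 and -2.05, and every interval of Tcf12 crosses 0.

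Set against each E protein gene within the same library, Id2 gained on all 3 of them. The log2 difference Id2 minus Tcf4, counted from its ALP_WT mean, was 5.91 ± 0.28 (SD, n = 2) in sEILP_WT, 6.21 ± 0.45 (n = 3) in cEILP_WT, 6.94 ± 0.35 (n = 3) in EILP_WT, 7.34 ± 0.67 (n = 2) in EILP_KO and 8.94 ± 0.39 (n = 2) in ILCP_WT. For Tcf3 the same shifts were 3.55, 4.23, 5.25, 5.01 and 6.87, and for Tcf12 they were 4.21, 4.99, 5.42, 5.93 and 6.52. The order of the stages was thus the same for the 3 E protein genes except for EILP_WT and EILP_KO, which changed places with Tcf3. ALP_WT itself spread by 0.86 to 0.99 (SD). These are shifts in transcripts, not in protein pairs, and since Id2 is in every one of them they are a description with no test.

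**Figure D3:**
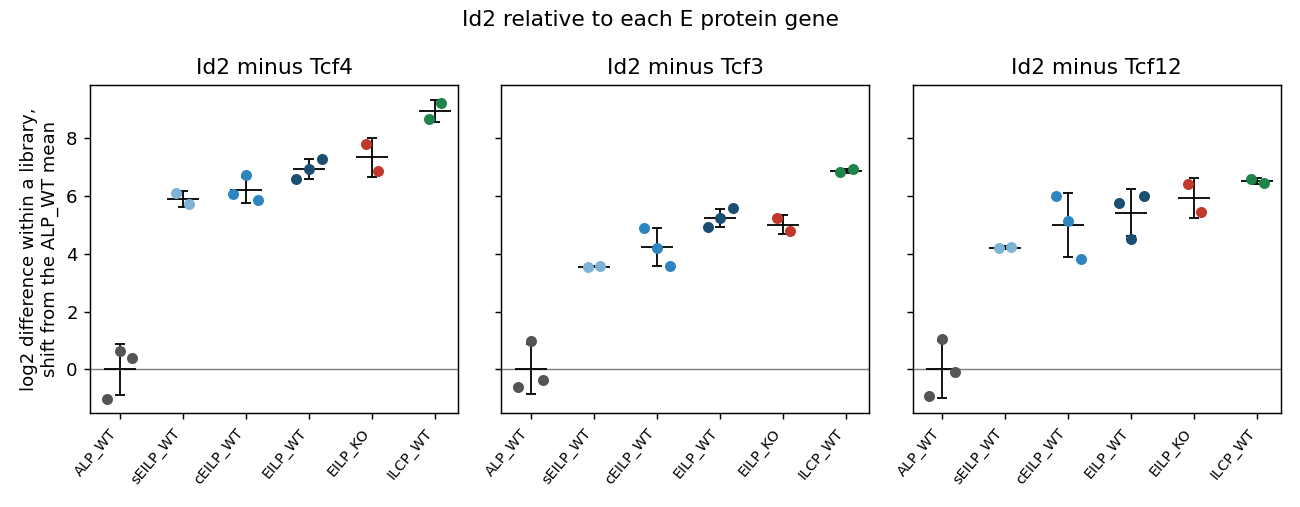
Id2 minus Tcf4, Tcf3 or Tcf12 within each library, as a log2 difference counted from its ALP_WT mean (vertical axis), by group (horizontal axis); points are libraries and bars are means with the SD. The difference from Tcf4 reaches 8.67 to 9.22 in ILCP_WT, and all 12 libraries outside ALP_WT lie above the ALP_WT libraries in each panel.

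Over the 15 libraries Id2 and Tcf4 had a Pearson correlation of -0.85 (Spearman -0.58), and a correlation of 0.19 once each group's mean was taken out. The points share groups, libraries and a normalization, and the negative value lies between groups and not within them. By the same measure the genes most like Id2, among 6148 tested genes above the median level, were Tmsb4x (0.95), Vasp (0.95), Itgb7 (0.94), Tox (0.94), Actr3 (0.94) and Cnn2 (0.94). Tmsb4x encodes an actin-binding peptide, Vasp and Actr3 encode proteins of actin assembly, and Itgb7 is a gene of the sort gate. The genes most opposed to Id2 were Xrcc6 (-0.96), which encodes the DNA repair protein Ku70, Tapt1 (-0.95), Cnn3 (-0.92) and Ptp4a3 (-0.92). With each group's mean taken out, the correlations with Id2 were 0.12 to 0.63 for the genes most like it. For the opposed genes they were -0.55 to 0.007.

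The genes most like Tcf4 were Atp5c1 (0.85), Xrcc6 (0.84), Tapt1 (0.83), Eltd1 (0.81), Cox7a2l (0.81) and Rps3 (0.80). The most opposed were Cptp (-0.89), Cnn2 (-0.88), Tuba8 (-0.88) and Ap3s1 (-0.87). With group means taken out, the correlations with Tcf4 were -0.013 to 0.66 for the genes like it and -0.64 to -0.37 for the opposed. Xrcc6, Tapt1 and Cnn2 stand in both rankings with opposite sign. These rankings are loose: by Spearman correlation 1 of the 6 genes most like Id2 and 1 of the 6 most like Tcf4 kept a place in the same top ranks, and 0 of the 4 opposed genes of either did. Without the EILP_KO libraries, the genes opposed to Id2 kept ranks 1 to 4, and those like it ranked 1 to 10. Those like Tcf4 ranked 1 to 38, and those opposed to it 1 to 11.

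The genes around the family were read in 6 lists: partners and cofactors of E proteins, early lymphoid E protein targets, Tcf4-dependent plasmacytoid dendritic cell genes, innate lymphoid regulators, BMP and TGF-beta input to Id genes, and Id protein turnover. Some genes, such as Ccr9, Bcl11a and Cbfa2t3, stand on more than 1 of them. The median difference of all tested genes lay between -0.07 and 0.04 in the 6 main comparisons.

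Among partners and cofactors, Lmo4, Cbfa2t3 and Ldb1 moved at the ILCP stage. Lmo4 encodes a LIM-only adaptor, Ldb1 the protein that such adaptors bind, and Cbfa2t3 a corepressor of the ETO family that E proteins recruit. Lmo4 was 4.07, 4.66 and 4.63 in ALP_WT, 5.73 and 5.59 in sEILP_WT, 6.12, 5.93 and 7.11 in EILP_WT and 7.03, 6.88 and 5.91 in cEILP_WT. In ILCP_WT it was 10.13 and 10.58, above every other library. It rose by 3.72 from cEILP_WT to ILCP_WT (SE 0.40, limma adjusted p = 0.000236).

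Cbfa2t3 was 5.68 to 7.63 in the 13 libraries before the ILCP stage and 3.66 and 4.34 in ILCP_WT, below all of them. It fell by 2.93 from cEILP_WT (SE 0.35, limma adjusted p = 0.000446). In ILCP_WT against cEILP_WT 1 of 15 partners rose and 2 fell, the other being Tal1, which encodes a basic helix-loop-helix partner of E proteins. The median of the list was -0.08 (0.14 without 2 genes with a whole group at the lowest value), and 2.69% of all genes rose and 4.72% fell there. So few calls among 15 genes are not read as a result about the partners. Tal1 was 3.54, 1.48 and 3.12 in cEILP_WT and at the lowest value in both ILCP_WT libraries (limma adjusted p = 0.0399), a call that no 4 of the 5 libraries kept (limma adjusted p = 0.0609 to 0.178). Against EILP_WT, Lmo4 and Ldb1 rose and Cbfa2t3 fell, where 2.61% of all genes rose and 4.34% fell. Ldb1 rose by 1.33 (SE 0.26, limma adjusted p = 0.0100), and by 1.2 (adjusted p = 0.0766) without ILCP_WT replicate 1.

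In the earlier step, ALP_WT to EILP_WT, 1 of the 15 partners rose, Lmo4 by 1.99 (SE 0.37, limma adjusted p = 0.0126), and 0 fell, where 1.71% of all genes rose and 1.5% fell, with a median of -0.19. That call was lost without ALP_WT replicate 1 (1.79, adjusted p = 0.0802) or EILP_WT replicate 3 (1.52, adjusted p = 0.0937). In sEILP_WT against ALP_WT, in cEILP_WT against sEILP_WT and in EILP_KO against EILP_WT, 0 of 15 passed by limma. The other partners of the list, among them the genes of the cofactors p300 and CBP, passed in none of the 6 main comparisons.

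Of 21 early lymphoid E protein targets, 2 rose and 4 fell from ALP_WT to EILP_WT, where 1.71% of all genes rose and 1.5% fell, with a median of -2.54 (-2.09 without 6 genes with a whole group at the lowest value). Rag1, which with Rag2 encodes the recombinase that assembles antigen receptor genes, stood at 4.26, 2.88 and 1.98 in ALP_WT and was at the lowest value in all 12 other libraries (limma adjusted p = 0.00264 in EILP_WT). Rag2 stood at 6.98, 6.49 and 6.81 in ALP_WT and was at the lowest value in all 3 EILP_WT libraries, but 2.99 and 4.04 in sEILP_WT and 4.40 in 1 ILCP_WT library. Its call (limma adjusted p = 0.0222) was lost without any 1 of the 6 libraries (adjusted p = 0.0504 to 0.0738). Hes1, a Notch target, rose by 5.30 (SE 1.18, limma adjusted p = 0.0326), from 2.49, 1.61 and -2.36 to 4.78, 5.92 and 6.69. The Hes1 call was lost without ALP_WT replicate 2 (5.74, adjusted p = 0.0551), EILP_WT replicate 2 (5.20, adjusted p = 0.0807) or EILP_WT replicate 3 (4.72, adjusted p = 0.176). Notch1, the gene of a Notch receptor and named here after its values were seen, was 8.27, 7.74 and 7.59 in ALP_WT and 5.19, 4.81 and 5.55 in EILP_WT. It fell by 2.54 (SE 0.59, limma adjusted p = 0.0394), a call lost without any of the 6 libraries (adjusted p = 0.0637 to 0.207).

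Ccr9, a chemokine receptor gene on both target lists, had a pattern of its own. It was 5.78, 2.59 and 3.19 in ALP_WT, at the lowest value in every sEILP_WT, EILP_WT and EILP_KO library and in 2 of 3 cEILP_WT libraries, and 8.27 and 8.77 in ILCP_WT. So it fell from ALP_WT to EILP_WT (limma adjusted p = 0.00449) and rose from cEILP_WT to ILCP_WT (limma adjusted p = 0.000258), while Id2 rose in both. In sEILP_WT against ALP_WT, Rag1 and Ccr9 fell (limma adjusted p = 0.0136 and 0.0219) and Cdkn1a, which encodes the cell cycle inhibitor p21, rose by 1.56 (SE 0.32, limma adjusted p = 0.0492). The 18 other targets did not pass, where 0.493% of all genes rose and 0.31% fell, and the median was -1.47 (-0.94 without 5 genes with a whole group at the lowest value). Without sEILP_WT replicate 1 or 2, or ALP_WT replicate 1, all 3 calls were lost (adjusted p = 0.0803 to 0.125 for Rag1, 0.142 to 0.167 for Ccr9, and 0.235 to 0.305 for Cdkn1a), and the Cdkn1a call also without ALP_WT replicate 3 (0.0971).

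Cdkn1a later turned. It was 6.68 to 7.66 in the cEILP_WT and EILP_WT libraries and 3.54 and 3.83 in ILCP_WT, and it fell by 3.93 from cEILP_WT to ILCP_WT (SE 0.29, limma adjusted p = 1.44e-05). In that comparison 1 of 21 targets rose and 3 fell, where 2.69% of all genes rose and 4.72% fell, with a positive median of 0.69. Dntt, which encodes the enzyme that adds bases at receptor gene junctions, and Bcl11a, a lymphoid zinc finger gene, also fell. Dntt was 8.12, 8.24 and 8.84 in cEILP_WT and 6.10 in 1 ILCP_WT library but at the lowest value in the other. Without that library, ILCP_WT replicate 1, the Dntt difference was -2.07 (limma adjusted p = 0.127), against -7.87 with it, and the call was also lost without any of the cEILP_WT libraries (adjusted p = 0.0788 to 0.0832). Bcl11a fell by 2.23 (SE 0.48, limma adjusted p = 0.0160), a call lost without cEILP_WT replicate 2 (-2.01, adjusted p = 0.0584) or ILCP_WT replicate 1 (-2.02, adjusted p = 0.104).

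In ILCP_WT against EILP_WT, 2 targets rose and 2 fell of 21, where 2.61% of all genes rose and 4.34% fell, with a median of 1.10 (-0.17 without 6 genes with a whole group at the lowest value). Besides Ccr9, the gene that rose was Foxo1, which encodes a forkhead factor of lymphoid development. Foxo1 was 3.49, 0.96 and 3.07 in EILP_WT and 6.89 and 6.48 in ILCP_WT, and it rose by 4.19 (SE 0.78, limma adjusted p = 0.00706). Without ILCP_WT replicate 1 that rise was 3.99 (adjusted p = 0.0576). Cdkn1a and Bcl11a fell by 3.25 and 2.70 (limma adjusted p = 5.87e-05 and 0.00546).

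Of 17 Tcf4-dependent plasmacytoid dendritic cell genes, 0 rose and 4 fell from ALP_WT to EILP_WT, alongside Tcf4 itself, where 1.5% of all genes fell, with a median of -1.09. They were Ccr9, Runx2, Siglech and Tlr7. Runx2, which encodes a Runt factor, was 7.59, 6.97 and 6.46 in ALP_WT and 6.00, 4.84 and 3.47 in EILP_WT, and it fell by 2.70 (SE 0.43, limma adjusted p = 0.00547). Siglech, a defining surface receptor gene of plasmacytoid dendritic cells, stood at 5.39, 7.59 and 6.17 in ALP_WT and was at the lowest value in all EILP_WT and ILCP_WT libraries (limma adjusted p = 0.0347 in EILP_WT). Tlr7, the gene of an RNA sensor, stood at 6.65, 6.88 and 6.05 in ALP_WT and was at the lowest value in 2 of 3 EILP_WT libraries (limma adjusted p = 0.0480). Leaving out any 1 of the 6 libraries ended the Siglech call (adjusted p = 0.0714 to 0.117), and leaving out any but EILP_WT replicate 2 ended the Tlr7 call (adjusted p = 0.106 to 0.188).

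Markers of other cell types differed between the same groups as Tcf4 and Id2. Of all genes, 1.5% fell in EILP_WT and 0.31% in sEILP_WT against ALP_WT. Of 8 plasmacytoid dendritic markers 7 were in the table, of which 2 fell in EILP_WT and 1 in sEILP_WT against ALP_WT. Their summed linear level was 276 to 651 in ALP_WT, 93.9 to 120 in sEILP_WT, 81.1 to 90.3 in cEILP_WT, 95.2 to 105 in EILP_WT and 72.8 to 110 in EILP_KO. In ILCP_WT it was 396 to 556, and 87.3 to 119 without Ccr9, a sum added after the values were seen. Siglech, Ly6d and Cox6a2 were at the lowest value in both ILCP_WT libraries, Siglech and Ccr9 in all EILP_WT libraries.

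B lineage markers, 7 of 12 in the table, summed to 1602 to 2587 in ALP_WT and to between 442 and 893 elsewhere, with Ebf1 at the lowest value in every sEILP_WT, cEILP_WT, EILP_WT and EILP_KO library. Most of that sum is Ighm, the immunoglobulin heavy chain gene, and without it, in a sum added after the values were seen, the range was 221 to 457 in ALP_WT and 75.7 to 124 in EILP_WT. In EILP_WT 2 of the 7 fell, Ighm by 1.37 (limma adjusted p = 0.00324) and Mzb1 (limma adjusted p = 0.0222), and in sEILP_WT Ighm alone did (limma adjusted p = 0.0350). In those comparisons 1.5% and 0.31% of all genes fell. The Mzb1 call was lost without ALP_WT replicate 1 or EILP_WT replicate 2 or 3 (adjusted p = 0.0555 to 0.103), and the Ighm call in sEILP_WT without any library but ALP_WT replicate 3 (adjusted p = 0.0740 to 0.240). The part of plasmacytoid dendritic and B lineage cells in the Tcf4 difference was not tested.

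Mast cell and basophil markers, 6 of 7 in the table, were low where Id2 was low. They summed to 15.3 to 51.7 in ALP_WT, 1095 to 1134 in sEILP_WT, 1126 to 2014 in cEILP_WT, 581 to 981 in EILP_WT, 375 to 518 in EILP_KO and 90.1 to 767 in ILCP_WT. Of the 6, Cpa3, the gene of a mast cell carboxypeptidase, was the 1 that passed: it rose by 6.81 in EILP_WT (SE 0.39, limma adjusted p = 2.03e-06) and by 7.42 in sEILP_WT (SE 0.46, limma adjusted p = 1.03e-05). In those comparisons 1.71% and 0.493% of all genes rose. Cpa3 fell by 3.57 from cEILP_WT to ILCP_WT (limma adjusted p = 0.000426), where Id2 rose. Without Cpa3 the sum was 11.9 to 47.6 in ALP_WT and 25.0 to 233 in EILP_WT, with overlap, and 114 to 144 in sEILP_WT, without, again in a sum added after the values were seen. Among 6 erythroid and megakaryocyte markers Itga2b, an integrin gene, did likewise: it rose in EILP_WT and sEILP_WT (limma adjusted p = 0.0114 and 0.0494) and was at the lowest value in both ILCP_WT libraries. The Itga2b call in EILP_WT was lost without ALP_WT replicate 1 (adjusted p = 0.0725), and that in sEILP_WT without 4 of the 5 libraries, all but ALP_WT replicate 3.

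Natural killer (NK) cell markers, 10 of 11 in the table, summed to 109 to 203 in ALP_WT and 348 to 1580 in EILP_WT. The sum was 432 to 471 in sEILP_WT, 420 to 690 in cEILP_WT, 458 to 597 in EILP_KO and 1073 to 1142 in ILCP_WT. Of all genes, 1.71% rose in EILP_WT and 0.493% in sEILP_WT against ALP_WT, and 2.69% in ILCP_WT against cEILP_WT. In EILP_WT 3 of the 10 rose against ALP_WT, Ccl5, Il2rb and Nkg7, in sEILP_WT Ccl5 alone, and in ILCP_WT against cEILP_WT Ncr1 alone. Of these only the Ccl5 call in EILP_WT held with each single library left out; in EILP_WT the Il2rb call was lost without EILP_WT replicate 3 (adjusted p = 0.0749) and the Nkg7 call without replicates 2 or 3 of either group (adjusted p = 0.0757 to 0.203). The Ccl5 call in sEILP_WT was lost without ALP_WT replicate 1 or either sEILP_WT library (adjusted p = 0.160 to 0.270), and the Ncr1 call without any library but cEILP_WT replicate 2 (adjusted p = 0.110 to 0.182). Gzma and Prf1 were at the lowest value in both ILCP_WT libraries. Conventional dendritic markers, 8 of 9 in the table, rose in part from cEILP_WT to ILCP_WT, where Id2 rose too. Against cEILP_WT 4 of the 8 rose, with a median of 2.33, and Flt3, a gate gene, fell. In that comparison 2.69% of all genes rose and 4.72% fell. Their sum was 184 to 459 in cEILP_WT and 822 to 1625 in ILCP_WT, against 1608 to 2229 in ALP_WT, where Id2 was lowest. Cd74, the invariant chain gene of MHC class II, rose by 4.72 (SE 0.76, limma adjusted p = 0.00312), H2-Ab1 by 2.31 (adjusted p = 0.0126), Xcr1 by 8.05 (adjusted p = 0.00902) and Batf3, named after its values were seen, by 5.66 (adjusted p = 0.0422). The H2-Ab1 call was lost without ILCP_WT replicate 1 (adjusted p = 0.121), the Xcr1 call without cEILP_WT replicate 3 or ILCP_WT replicate 2 (adjusted p = 0.0507 and 0.0657), and the Batf3 call without any of the 5 libraries. Itgax and Clec9a were at the lowest value in every cEILP_WT and ILCP_WT library. The conventional dendritic sum, Flt3 included, was 892 to 1280 in sEILP_WT, 588 to 1204 in EILP_WT and 621 to 1292 in EILP_KO. Each overlapped ILCP_WT, with Flt3 means of 9.12, 7.77 and 8.42 in those 3 groups. In ILCP_WT against EILP_WT, Xcr1 alone of the 8 rose and Flt3 fell, with a median of 0.63. In that comparison 2.61% of all genes rose and 4.34% fell. T lineage markers, 9 of 10 in the table, had a median of 5.11 from cEILP_WT to ILCP_WT, with 7 of 9 positive. Trac alone rose (7.55, SE 1.87, limma adjusted p = 0.0320), where 2.69% of all genes did. That call was lost without any library but cEILP_WT replicate 1 (adjusted p = 0.0888 to 0.160). The T lineage sum was 351 to 482 in cEILP_WT and 282 to 497 in ILCP_WT, with overlap. Against ALP_WT, 0 of the 9 passed in EILP_WT or sEILP_WT. The part of mast, NK, T lineage and conventional dendritic cells in the Id2 differences was not tested.

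At the ILCP step 1 gene of the plasmacytoid list rose, Ccr9, and 5 fell of 17 against cEILP_WT, where Tcf4 did not pass and 2.69% of all genes rose and 4.72% fell. The median was -0.53, and 0.05 without 4 genes with a whole group at the lowest value. Irf8, which encodes an interferon regulatory factor of dendritic and myeloid cells, was 8.79, 9.75 and 7.76 in cEILP_WT and 7.21 and 5.37 in ILCP_WT, and it fell by 2.30 (SE 0.35, limma adjusted p = 0.00190). Cbfa2t3 and Bcl11a, given above, are on this list too, with 2 further genes that fell. Against EILP_WT, Irf8 fell by 3.65 (SE 0.35, limma adjusted p = 7.69e-05), with 4 of 17 called lower and 1 higher (4.34% and 2.61% of all genes) and a median of -1.32.

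Of 15 innate lymphoid regulators, several rose in EILP_WT and sEILP_WT against ALP_WT and none in ILCP_WT against cEILP_WT or EILP_WT. The list was not counted in ILCP_WT against ALP_WT. From ALP_WT to EILP_WT 9 of 15 rose and 0 fell, where 1.71% of all genes rose, with a median of 6.22 (5.92 without 4 genes with a whole group at the lowest value). Tcf7 is among the 9 and is also a gene of the EILP_WT gate, so its rise describes the gate. Zbtb16, also among the 9, is in the gates of sEILP_WT and cEILP_WT but not in that of EILP_WT. Tox, which encodes an HMG-box factor that ILC development needs, was 3.34, 3.71 and 3.47 in ALP_WT and 7.86, 8.15 and 8.66 in EILP_WT, and it rose by 4.84 (SE 0.24, limma adjusted p = 5.30e-07). Runx3, another Runt factor, rose by 2.15 (SE 0.20, limma adjusted p = 0.000177). In sEILP_WT against ALP_WT 6 of 15 rose, where 0.493% of all genes did, and 0 fell (median 4.49), with Tox up by 4.21 (SE 0.28, limma adjusted p = 1.36e-05) and Runx3 by 1.67 (SE 0.24, limma adjusted p = 0.0108). The Runx3 rise there was 1.48 (adjusted p = 0.108) without sEILP_WT replicate 2.

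In ILCP_WT against cEILP_WT and EILP_WT the calls among these regulators were falls, while Id2 rose against cEILP_WT. Runx3 was 8.31, 7.82 and 7.94 in cEILP_WT and 6.43 and 6.86 in ILCP_WT and fell by 1.38 (SE 0.22, limma adjusted p = 0.00318). Tcf7 fell by 1.19 (SE 0.32, limma adjusted p = 0.0436), a call lost without any 1 of the 5 libraries (adjusted p = 0.0746 to 0.171). Those were 2 falls and 0 rises of 15, with a positive median of 1.58, where 4.72% of all genes fell and 2.69% rose. Against EILP_WT, Runx3 and Nfil3 fell by 1.24 and 2.79 (limma adjusted p = 0.00632 and 0.0135) with a median of 1.79, and both calls were lost without ILCP_WT replicate 1 (-0.95 and -1.84, adjusted p = 0.0708 and 0.157). Nfil3 encodes a basic leucine zipper factor upstream of Id2 in innate lymphoid development. It was 9.44, 8.21 and 7.97 in EILP_WT, 9.25 and 8.80 in EILP_KO and 5.09 and 6.30 in ILCP_WT.

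In EILP_KO against EILP_WT, 0 of 15 innate lymphoid regulators rose and Tcf7 alone fell, where 0.0477% of all genes rose and 0.0557% fell. The median of the list was nevertheless -2.43 (-1.74 without 2 genes with a whole group at the lowest value). Most estimates of the list were negative, with 4 of 15 positive. Zbtb16 was 1.74 lower in EILP_KO without a call (SE 0.57, limma adjusted p = 0.451). Some other genes of the list overlapped between the groups, among them Nfil3, Tox at 7.42 and 8.35 in EILP_KO, and Lef1. These examples do not stand for the list, most of which had negative estimates. Lef1, at 4.59 and 5.87 in EILP_KO, lay within its range of -0.72 to 6.40 in EILP_WT. Myeloid markers, 11 of 12 in the table, summed to 4475 to 5759 in EILP_KO and to 633 to 4060 in EILP_WT, and their part in this comparison was not tested.

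**Figure D4:**
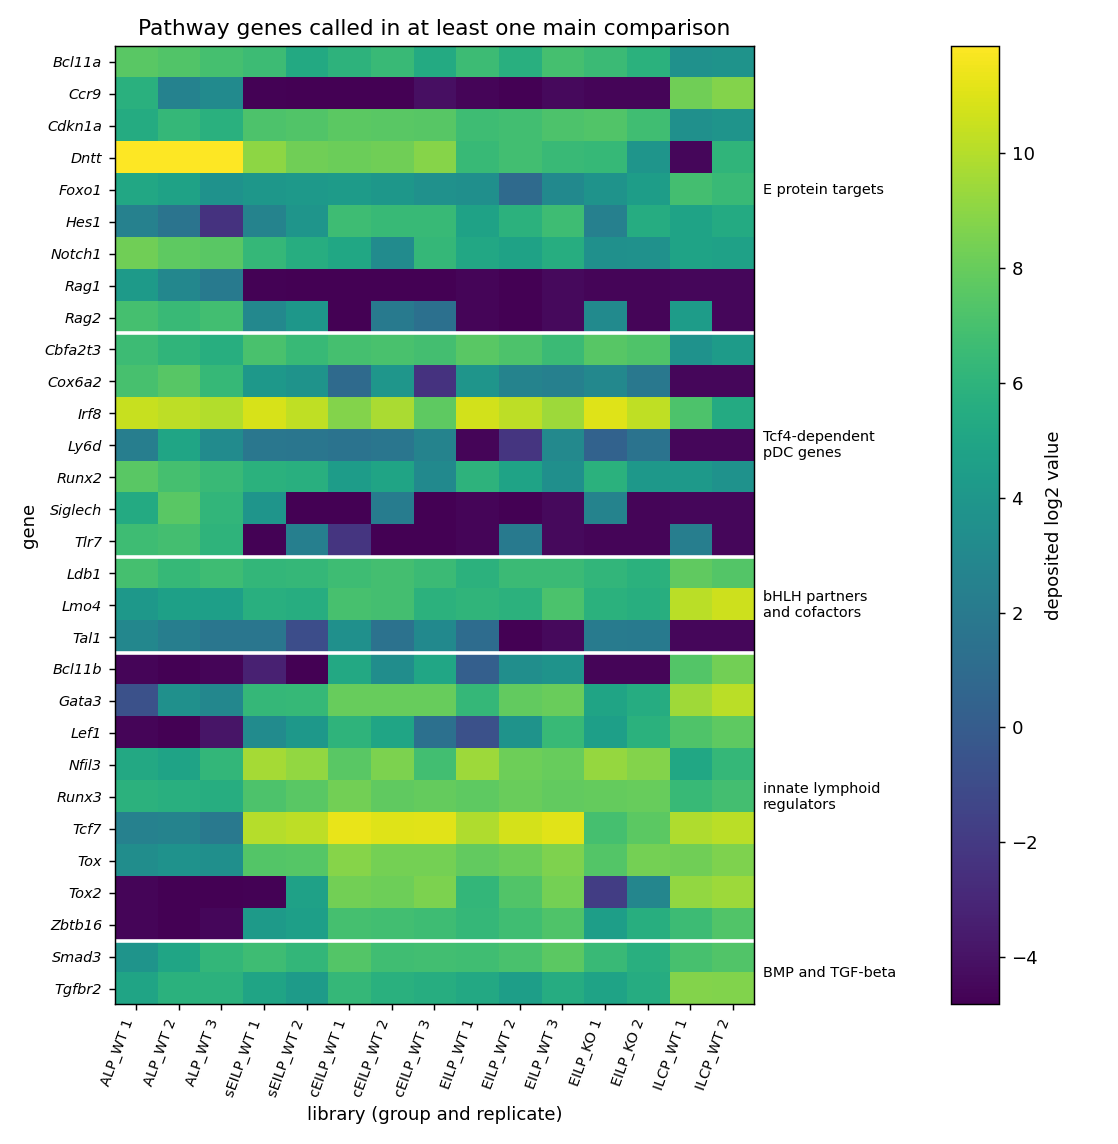
Deposited log2 values (colour scale) of the 30 pathway genes that passed in at least 1 main comparison (rows), in the 15 libraries (columns, by group and replicate). Rag1 is at the lowest value in all 12 libraries outside ALP_WT, Ccr9 is high in ALP_WT and ILCP_WT, and Lmo4 is highest in ILCP_WT at 10.13 and 10.58.

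BMP and TGF-beta signalling, which feeds into Id gene transcription through Smad proteins, gave 1 call or none per comparison among 21 genes. In the comparisons with 1 call, EILP_WT against ALP_WT and ILCP_WT against cEILP_WT and EILP_WT, 1.71%, 2.69% and 2.61% of all genes rose, so these counts are no result about the pathway. Smad3, the gene of a TGF-beta Smad, rose by 2.28 from ALP_WT to EILP_WT (SE 0.49, limma adjusted p = 0.0272), from 3.84, 4.99 and 6.26 to 6.77, 7.10 and 7.66. That call was lost without ALP_WT replicate 1 (1.56, adjusted p = 0.15) or replicate 2 (2.2, adjusted p = 0.0846) and without EILP_WT replicate 2 (2.25, adjusted p = 0.0704) or replicate 3 (2.12, adjusted p = 0.139). Tgfbr2, the type II TGF-beta receptor gene, was 6.29, 5.80 and 5.56 in cEILP_WT, 5.23, 4.56 and 5.51 in EILP_WT and 8.79 and 8.69 in ILCP_WT. It rose by 2.80 from cEILP_WT (SE 0.39, limma adjusted p = 0.00122) and by 3.59 from EILP_WT (SE 0.39, limma adjusted p = 0.000229). No BMP receptor gene or BMP Smad gene of the list passed by limma in the 6 main comparisons.

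The 8 genes of Id protein turnover, which include Usp1, the gene of a deubiquitinase that stabilises Id proteins, passed in none of the 6 main comparisons by limma. Their medians lay between -0.21 and 0.30.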

How the data were processed

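Bulk RNA-seq of 15 libraries in 6 groups was analysed. Per the labels' protocols, RNA from sorted cells was amplified by the SMARTer ultra low input method and made into Nextera XT libraries. Build mm10, STAR 2.5.2b, RSEM 1.2.23, bcl2fastq 2.17 and limma (no version) were used per the submitters' processing notes; the annotation is not given in the sources used here. The deposited table holds log2 values per gene, with the same top value and nearly the same median in every library, as after quantile normalization. It holds no counts, so depth is unknown and no interval from counts can be given. A further 24 unnamed columns were not used.

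A single limma 3.58.1 model (R 4.3.3) with group and batch took in every library, allowed the variance to follow the level, and covered genes at a log2 value of 0 or more in 2 or more libraries. It was tested on simulated data. P-values were adjusted by Benjamini-Hochberg over all 12572 genes in each of 15 comparisons, with a threshold of 0.05. Batch is the label's own; 9 libraries were in batch 1 and 6 in batch 2, and sEILP_WT was in batch 1 only. Named list genes were up to 4 per list and comparison, by the largest moderated statistic among those that passed. Genes most like a member were the 6 highest and 4 lowest Pearson correlations. Members and lists were chosen with earlier results of these data known. Promoters are RefSeq's (GRCm38.p6). Alternatives covered the batch term, variance trend, weights, filter, scale, normalization, samples fitted, replicate block, single batches and each library left out.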

Additional observations from a re-analysis of the deposited data

How the results depend on the processing

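The 4 tested members gave 24 values in the 6 main comparisons. Under 404 alternatives 348 kept direction and side of the threshold, 36 lost the call, 3 gained one and 17 turned sign. In the other 9 pairs Id2 and Tcf4 gave 298, of which 262 were kept, 27 lost and 9 turned. The cause of a change was not tested, except that single batches and 2 groups alone leave fewer libraries. Values below are log2 differences, with limma adjusted p.

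For EILP_WT against ALP_WT, Id2 was 5.44 (adjusted p = 0.166) in batch 2 alone. Tcf4 was -1.64 (adjusted p = 0.0614) without the intensity trend, -1.50 (adjusted p = 0.0906) with array weights, -1.69 (adjusted p = 0.0700) with the 2 groups alone, -2.04 in batch 1 and -1.34 in batch 2, and -1.91 to -1.38 with 1 library left out. For sEILP_WT against ALP_WT, Id2 was 4.55 (adjusted p = 0.133) with the 2 groups alone. Tcf4 was -2.05 (adjusted p = 0.109) without the trend, -2.38 (adjusted p = 0.138) with the 2 groups alone, -2.38 (adjusted p = 0.0763) in batch 1, and -2.29 to -1.74 with 1 library left out. For ILCP_WT against cEILP_WT, Id2 was 2.15 (adjusted p = 0.0984) with the 2 groups alone, 2.91 (adjusted p = 0.265) in batch 2, and 1.57 to 2.32 with 1 library left out. For ILCP_WT against EILP_WT, Id2 passed on log2(value + 1) (1.32, adjusted p = 0.0480), with cyclic loess (1.49, adjusted p = 0.0473) and in batch 1 (1.34, adjusted p = 0.0266). For EILP_KO against EILP_WT, Id2 was 0.15 in batch 1 and -0.54 to 0.028 with 1 library left out. Batch 2 holds no sEILP_WT library and gave no value for it.

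With the replicate number as a block, the Tcf4 calls were lost in EILP_WT (-1.43, adjusted p = 0.0693) and sEILP_WT (-1.91, adjusted p = 0.0819) against ALP_WT, and the Id2 call in ILCP_WT against cEILP_WT (1.78, adjusted p = 0.0729). Deviations of same-numbered libraries from their group means had correlations of -0.05 to 0.05 over 13 pairs, and those of 26 others -0.06 to 0.05. In a group of 2 libraries the deviations mirror each other, so these correlations cannot decide whether the numbers pair libraries. All genes called under this block were 160, 16, 0, 338, 345 and 0, against 404, 101, 0, 932, 874 and 13, in the order EILP_WT and sEILP_WT against ALP_WT, cEILP_WT against sEILP_WT, ILCP_WT against cEILP_WT and EILP_WT, and EILP_KO against EILP_WT.

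Some estimates turned sign; ranges in brackets leave out 1 library. Tcf12 was 0.26 with array weights (-0.45 to 0.37) in EILP_WT against ALP_WT, 0.048 with weights (-0.24 to 0.32) in sEILP_WT against ALP_WT, and -0.14 in batch 1 (-0.093 to 0.68) in ILCP_WT against EILP_WT. In cEILP_WT against sEILP_WT the ranges were -0.41 to 0.082 for Tcf12 and -0.18 to 0.032 for Tcf3. Tcf3 in EILP_KO against EILP_WT was -4.1e-05 with the 2 groups alone and -0.015 in batch 1 (-0.018 to 0.025). Tcf4 was -0.0021 with weights and -0.13 in batch 1 (-0.19 to 0.33) in EILP_WT against cEILP_WT, 0.079 with cyclic loess and 0.34 in batch 1 (-0.49 to 0.41) in ILCP_WT against EILP_KO, and ranged from -0.56 to 0.34 in EILP_KO against sEILP_WT.

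In the same order, pathway genes called were 20, 9, 0, 13, 12 and 1. Settings that kept all libraries of the groups or took single batches gave 0 to 24, 0 to 11, 0 to 1, 0 to 16, 0 to 17 and 0 to 2, and leaving out 1 library gave 11 to 18, 3 to 9, 0 to 1, 8 to 10, 10 to 15 and 1 to 3. All genes called ranged over 0 to 490, 0 to 153, 0 to 9, 0 to 1120, 0 to 1059 and 0 to 19, and with 1 library left out over 177 to 380, 20 to 110, 0 to 7, 509 to 769, 643 to 787 and 2 to 54. The 43 values of named list genes gave 737 alternatives, 555 kept, 182 lost and 0 turned. Alternatives for the marker genes and Notch1 were chosen after seeing the data.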
